A study of Mus musculus with 16 samples.

Results

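The JAK, STAT and Socs3 signalling genes described here are 9 of the 13832 genes in the deposited table: the transcription factors Stat2, Stat3, Stat5a, Stat5b and Stat6, the kinases Jak1, Jak2 and Tyk2, and the feedback inhibitor Socs3. They were found by an exact match of the gene symbol. All 9 passed the filter on low counts, as did 9529 genes in all. The cells were RAW264.7, an established mouse macrophage-like line, and the agent was lipopolysaccharide (LPS) from E. coli O111:B4 at 100 ng/ml, a component of the bacterial outer membrane. For each time, 1 lysate made with cycloheximide gave 1 library of ribosome footprints (RNA that ribosomes shield from RNase I) and 1 of input, the fragmented cytoplasmic RNA. The times were untreated, 6 points spaced 15 min apart up to 90 min of LPS, and 16 h of LPS, which makes 16 groups of 1 library each.

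Receptors for interferons, interleukins and colony-stimulating factors carry JAK kinases, which phosphorylate each other and the receptor once a ligand binds. STAT proteins dock on the receptor, are phosphorylated in turn, pair up and enter the nucleus to switch genes on, so that much of their activity is set on the protein and is not visible in RNA. In macrophages LPS is known to start this pathway indirectly, through secreted interferon beta and cytokines of the IL-6 and IL-10 families, and SOCS3 blocks signalling at gp130, the receptor chain shared by IL-6 relatives.

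Every library held 6702930 to 6702932 counts, so the totals carry no information on sequencing depth. Since no group was repeated, 2 single libraries cannot be tested against each other, and the error in every test below comes from how far libraries lie from a curve fitted through the times. Untreated cells were harvested only at the start, so effects of LPS and of handling or time in culture cannot be told apart. The line was checked against markers: all 10 macrophage markers were in the table, with summed counts of 29084 to 43910 in footprints and 21665 to 33787 in input, and Mertk was the only one at 0 or 1 count. Of markers of other cells, those for T cells summed to at most 88 counts, mostly Lck, those for B cells to at most 7, and those for NK cells, fibroblasts and epithelium to at most 5 in any library.

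Among the 9 genes, Socs3 changed most within 90 min, Stat2 moved in opposite directions early and late, and Jak2 stood out by how few footprints it had for its amount of RNA. Promoters of the 2 genes with the largest changes are shown first, because Stat2 and Socs3 are the only members whose 250 bases before the RefSeq start (GRCm38.p6) hold one of the searched motifs. The motifs were a pair of TTTC runs with any 2 bases between them, the core of an interferon-stimulated response element, and TTCNNNGAA, the palindrome that STAT dimers recognise, each searched on both strands. The response element core was present in 2.98% and TTCNNNGAA in 7.02% of 32851 promoter windows of the same length. Capitals mark the match, 222 bases upstream of the start in Stat2 (chr10:128270248-128270497, plus strand) and 154 bases upstream in Socs3 (chr11:117969367-117969616, minus strand). A match describes the letters only.
Stat2: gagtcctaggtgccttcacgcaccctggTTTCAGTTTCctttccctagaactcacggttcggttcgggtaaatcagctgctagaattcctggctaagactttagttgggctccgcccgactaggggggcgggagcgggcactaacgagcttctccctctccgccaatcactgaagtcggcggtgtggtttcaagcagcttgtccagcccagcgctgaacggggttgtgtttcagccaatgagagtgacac
Socs3: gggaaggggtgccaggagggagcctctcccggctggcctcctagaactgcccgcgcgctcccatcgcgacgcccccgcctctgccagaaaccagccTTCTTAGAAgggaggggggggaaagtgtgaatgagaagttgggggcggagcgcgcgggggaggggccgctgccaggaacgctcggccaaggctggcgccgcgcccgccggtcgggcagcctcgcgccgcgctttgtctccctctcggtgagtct

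Socs3, which encodes the inhibitor of gp130 signalling, was the member that rose most in the first 90 min. Its footprint counts were 32 in untreated cells, 58, 213, 302, 468, 843 and 970 after 15, 30, 45, 60, 75 and 90 min, and 1430 after 16 h. Its input counts at the same times were 33, 73, 225, 310, 494, 879, 920 and 1241. Each library was higher than the one before it in both materials, and the sharpest step fell between 15 and 30 min. The fitted log2 change over 0 to 90 min was 5.26 ± 0.25 in footprints (SE, edgeR quasi-likelihood test, adjusted p = 1.25e-06) and 4.96 ± 0.22 in input (adjusted p = 6.98e-07), that is 38.3-fold and 31.2-fold higher. Here and below, the value of an early change is the largest fitted one. The p-value beside it tests the whole fitted curve, not that value. At 16 h footprints were 50.1-fold and input 41.7-fold above untreated cells (edgeR adjusted p = 7.48e-08 and 2.88e-08). Between 90 min and 16 h the change missed the threshold in footprints, at a log2 value of 0.39 ± 0.20 (edgeR adjusted p = 0.138), and in input, at 0.42 ± 0.17 (edgeR adjusted p = 0.0669). Whether that last comparison was called depended on single libraries: without the 30 min libraries, edgeR called it in footprints (adjusted p = 0.0214) and in input (adjusted p = 0.0163), and without those of 60 or 75 min in input (adjusted p = 0.0436 and 0.0259). Total-count scaling also gave a call in footprints (adjusted p = 0.0415).

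No change in the ratio of Socs3 footprints to Socs3 input was called. That ratio, called ribosome density below and scaled so that the typical gene lies near 1, was 1.06 in untreated cells with a 95% interval of 0.631 to 1.78, 1.28 at 90 min (1.16 to 1.40) and 1.29 at 16 h (1.19 to 1.39). The intervals cover counting error only, since each comes from the counts of 1 library pair. Molecular identifiers are mentioned in none of the sources used here, so duplicate reads could make the intervals too narrow. Neither the density change over 0 to 90 min (log2 0.29 ± 0.23, edgeR adjusted p = 0.817) nor that at 16 h (0.34 ± 0.25, adjusted p = 0.745) passed the test. Socs3 has a short coding sequence of 675 bases on 2 exons (chr11:117966079-117969186, minus strand, GENCODE vM21 on GRCm38), and its 3′ UTR of 1477 bases makes up 57.9% of the transcript. That UTR holds 4 copies of ATTTA, the core of AU-rich elements, as does that of Jak1. Over 9135 tested genes with a transcript the median was 1 and the 95th percentile 10, and 66.0% had at least 1.

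Stat2, which acts with IRF9 in the interferon-activated complex ISGF3, fell over the first 90 min and was far above untreated cells at 16 h. Its footprint counts were 138 in untreated cells, 152, 113, 112, 68, 48 and 36 after 15 to 90 min, and 1533 after 16 h. Its input counts were 112, then 117, 104, 78, 65, 51 and 55, and 1102 after 16 h. In both materials the 60, 75 and 90 min libraries lay below all earlier ones and the 16 h library lay above every other. Over 0 to 90 min footprints were 3.70-fold lower (log2 change -1.89 ± 0.20, edgeR adjusted p = 1.66e-05) and input 2.28-fold lower (-1.19 ± 0.19, adjusted p = 0.00138). At 16 h, against untreated cells, footprints were 11.5-fold higher (log2 3.52 ± 0.15, edgeR adjusted p = 2.4e-11) and input 10.2-fold higher (3.35 ± 0.15, adjusted p = 4.72e-10). Against the fitted value at 90 min the 16 h footprints were 42.4-fold higher, with a log2 change of 5.41 ± 0.18 (edgeR adjusted p = 2.45e-12).

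Stat2 density was lowest at 90 min, at 0.792 with an interval of 0.505 to 1.23 from 36 footprint and 55 input counts, against 1.35 (1.04 to 1.74) in untreated cells. The fitted density change over 0 to 90 min, -0.67 ± 0.27 on the log2 scale, had an unadjusted p of 0.0283 and did not pass the adjustment (edgeR adjusted p = 0.462). At 16 h the density was 1.55 (1.44 to 1.68), within the range of the first 45 min.

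**Figure D1:**
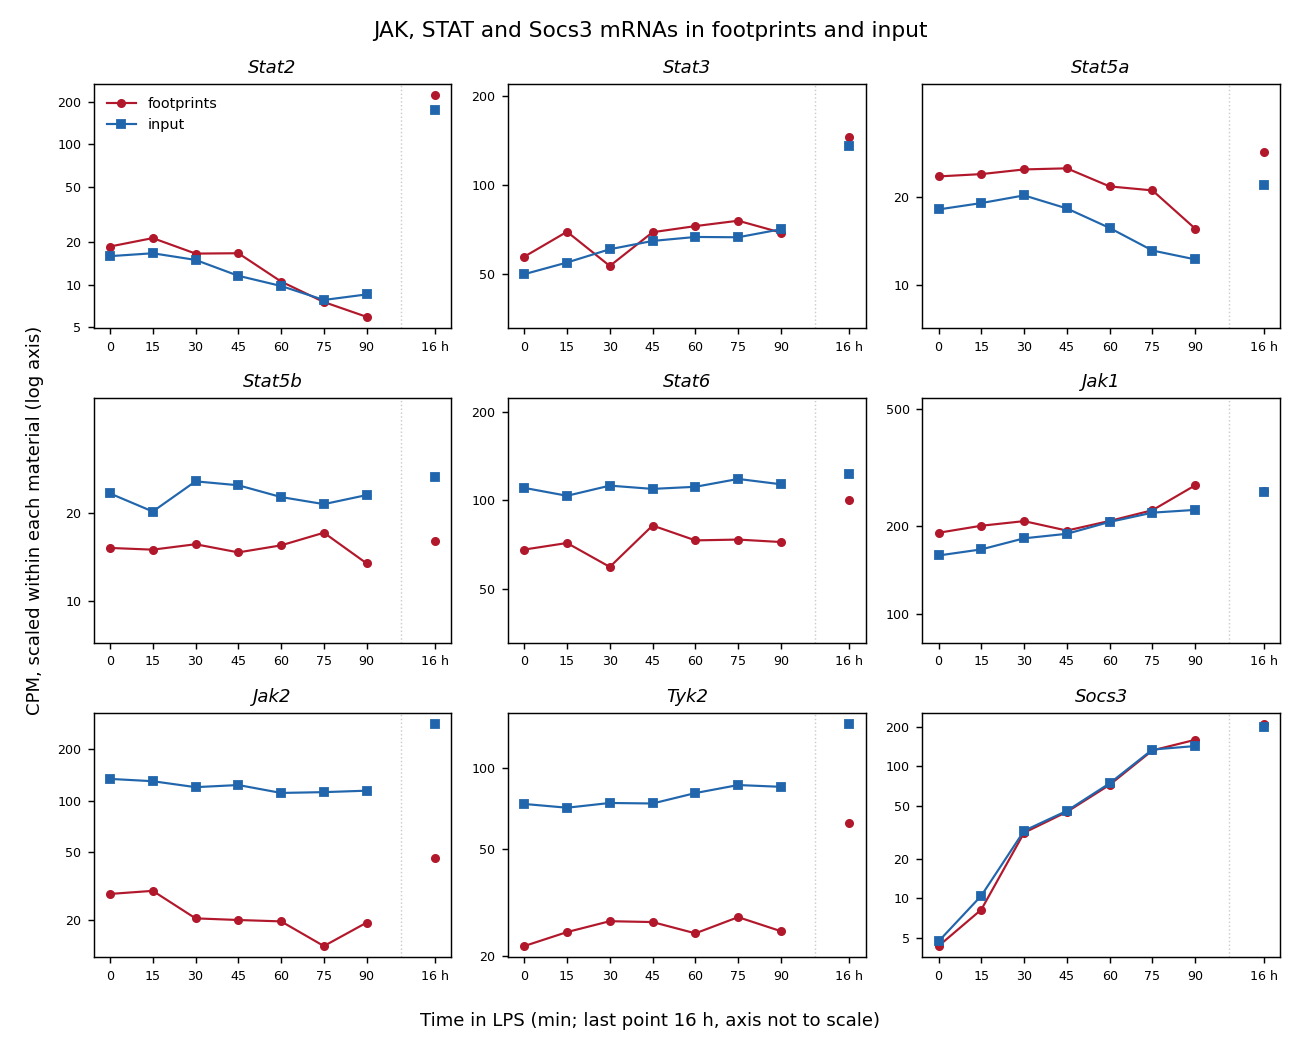
CPM (scaled counts, log axis, libraries scaled within each material) of the 9 genes in footprints (red circles) and input (blue squares) against time in LPS, 1 library per point, with 16 h set apart. Socs3 climbs through the first 90 min, Stat2 falls and then lies far above untreated cells at 16 h, and Jak2 and Tyk2 footprints lie well below their input; the Jak1 points at 16 h coincide.

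Stat3, the transducer of IL-6 and IL-10 signals, was higher at 16 h in both materials, and its early rise was called in input. Its footprint counts were 421 in untreated cells, 491, 360, 462, 468, 482 and 420 after 15 to 90 min, and 988 after 16 h, with the 30 min library the lowest. Its input counts were 349, then 381, 419, 435, 442, 435 and 456, and 852 after 16 h. The 16 h library was the highest in both materials. Over 0 to 90 min footprints did not pass the test (log2 0.32 ± 0.14, edgeR adjusted p = 0.254), while input rose 1.39-fold (0.48 ± 0.09, adjusted p = 0.00376, or 0.0615 when the 0 min library was left out). At 16 h Stat3 was 2.50-fold above untreated cells in footprints (log2 1.32 ± 0.16, edgeR adjusted p = 6.14e-06) and 2.73-fold in input (1.45 ± 0.10, adjusted p = 2.88e-08). Stat3 lies beside both Stat5 genes on chromosome 11 (chr11:100886810-100939540, minus strand, GENCODE vM21 on GRCm38), and its exons overlap those of Stat5a by 72 bases on the opposite strand. The sources used here do not say whether counting used strand, so reads from overlaps of this kind cannot be assigned.

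Stat5a and Stat5b, which transmit signals of GM-CSF and related cytokines, are near-identical neighbours (chr11:100860484-100885168, plus strand, and chr11:100780731-100822528, minus strand). Their coding sequences were identical at 90.83% of 2290 aligned bases, with a longest identical run of 324 bases. Of the 30-base words of the coding sequence, 64.1% for Stat5a and 63.5% for Stat5b occurred in no other gene. For each of the other 7 members that share was 100%, and words from the UTRs of the members were not searched. The sources used here do not say how reads with several matches were counted, so the split between Stat5a and Stat5b is uncertain. The first 90 coding bases are shown as an example of where the 2 differ; capitals mark the 16 mismatches, 17.8% of this stretch as against 9.17% of the whole alignment.
Stat5a: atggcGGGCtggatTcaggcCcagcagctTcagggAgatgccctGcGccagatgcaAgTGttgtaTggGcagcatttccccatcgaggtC
Stat5b: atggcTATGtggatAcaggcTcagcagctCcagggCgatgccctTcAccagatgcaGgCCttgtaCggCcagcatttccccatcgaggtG

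Footprints of Stat5a numbered 173 in untreated cells, 169, 168, 167, 140, 134 and 95 after 15 to 90 min, and 193 after 16 h. In input the gene had 127, then 133, 140, 123, 104, 86 and 79, and 137 counts. Both materials were lowest at 90 min, and their 16 h counts lay above the untreated ones. The fall over 0 to 90 min was 1.41-fold in footprints (log2 -0.49 ± 0.16, edgeR adjusted p = 0.0309) and 1.60-fold in input (-0.68 ± 0.16, adjusted p = 0.0104). Without the 90 min libraries neither change was called: the footprint value was -0.17 (edgeR adjusted p = 0.549) and the input value -0.48 (adjusted p = 0.0595). The footprint call was also lost without the 15 min libraries (adjusted p = 0.0612) and without those of 45 min (adjusted p = 0.0587), and DESeq2 called neither (adjusted p = 0.192 in footprints and 0.111 in input). From 90 min to 16 h Stat5a rose 1.74-fold in footprints (edgeR adjusted p = 0.00156, or 0.0827 without the 90 min libraries) and 1.89-fold in input (adjusted p = 0.000859).

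Stat5b kept to a narrow band, with 82 to 112 footprint counts and 140 to 177 input counts over the 8 time points. No change of Stat5b over time was called: the largest early log2 value was 0.08 ± 0.18 in footprints (edgeR adjusted p = 0.912), and the 16 h value was 0.11 ± 0.21 (adjusted p = 0.686). Stat5a made up 60.7% of the footprint counts of the pair in untreated cells (exact Clopper-Pearson 95% interval 54.8% to 66.4%), 53.7% at 90 min (46.0% to 61.2%) and 63.9% at 16 h (58.2% to 69.3%). In input the share was 43.8% (38.0% to 49.7%), 34.8% (28.6% to 41.4%) and 45.4% (39.7% to 51.2%) at the same times. At each of the 8 times the footprint share was the higher, and the difference in change between Stat5a and Stat5b was not tested.

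**Figure D2:**
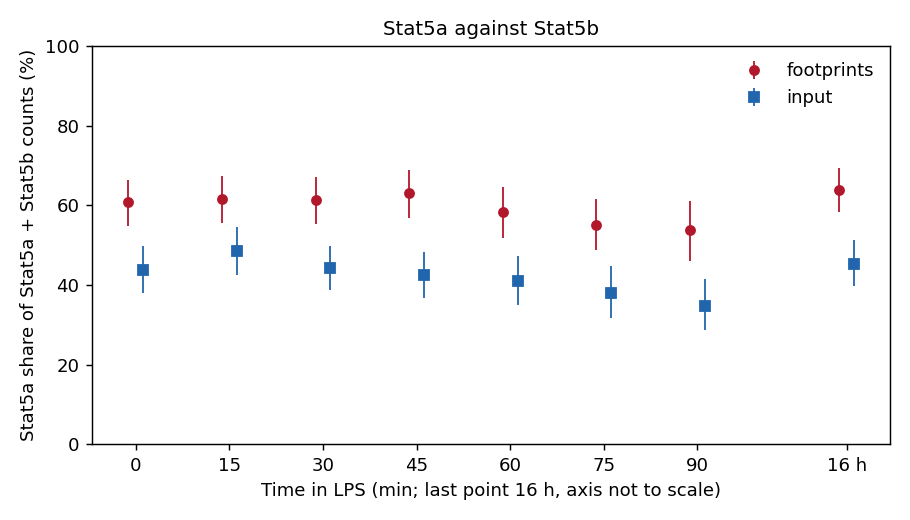
Share of Stat5a in the counts of Stat5a and Stat5b together (%, axis from 0 to 100) in footprints (red circles) and input (blue squares) against time in LPS, with exact 95% intervals that cover counting error only. The share is lowest at 90 min in both materials, at 53.7% in footprints and 34.8% in input.

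Stat6, the transducer of IL-4 and IL-13, had the steadiest input RNA of the 9 genes, with the highest library 1.19-fold above the lowest after scaling. Footprint counts ran between 403 at 30 min and 549 at 45 min within the first 90 min, with 684 at 16 h against 502 in untreated cells, and input counts between 724 and 777 over the 8 times. Neither material passed the test over 0 to 90 min (edgeR adjusted p = 0.709 in footprints and 0.586 in input). At 16 h footprints were above untreated cells (log2 0.59 ± 0.15, edgeR adjusted p = 0.00429, or 0.0547 without the untreated libraries), while the input value of 0.19 ± 0.10 did not pass (adjusted p = 0.106). Against 90 min the 16 h footprints were 1.37-fold higher (edgeR adjusted p = 0.0210, or 0.238 without the 90 min libraries). The Stat6 density at 16 h was the highest of the series, 0.991 (0.893 to 1.10) against 0.710 (0.633 to 0.796) in untreated cells, but its change of 0.47 ± 0.18 on the log2 scale did not pass the adjustment (unadjusted p = 0.0175, edgeR adjusted p = 0.344). Stat6 exons overlap the opposite-strand gene Nab2 by 40 bases.

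Jak1, the kinase of interferon, IL-6 and IL-10 receptors, was the most abundant member kinase in footprints, and in input up to 90 min. At 16 h Jak1 had fewer input counts than Jak2, 1631 against 1754. Its footprint counts were 1395 in untreated cells, 1414, 1405, 1286, 1339, 1438 and 1671 after 15 to 90 min, and 1786 after 16 h, with no steady climb before 75 min. Its input counts were 1110, then 1160, 1254, 1264, 1366, 1449 and 1458, and 1631 after 16 h, each above the one before. Over 0 to 90 min footprints rose 1.34-fold (log2 0.42 ± 0.10, edgeR adjusted p = 0.00535) and input 1.46-fold (0.55 ± 0.07, adjusted p = 0.00025). The footprint call rested on the 90 min library, without which the log2 value was 0.19 (edgeR adjusted p = 0.337), and on the scaling, with 0.16 (adjusted p = 0.0545) when total counts were used. Without the untreated library the curve was still called (edgeR joint test, adjusted p = 0.0104), but its largest log2 value was 0.24 ± 0.14. The value at 0 min was then extended from later times, here and in the comparison at 16 h. At 16 h the gene was 1.33-fold above untreated cells in footprints (edgeR adjusted p = 0.00679, or 0.352 without the untreated library) and 1.66-fold in input (adjusted p = 3.73e-06). Its exons overlap the opposite-strand gene Raver2 by 4 bases.

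Jak2, the kinase of the GM-CSF and interferon gamma receptors, had far more RNA than footprints. Its footprint counts were 210 in untreated cells, 210, 139, 134, 127, 90 and 118 after 15 to 90 min, and 314 after 16 h. Its input counts were 938, then 906, 829, 830, 735, 733 and 736, and 1754 after 16 h. Footprints from 30 to 90 min lay below the untreated and 15 min libraries, and the 16 h library lay above all others in both materials. Over 0 to 90 min footprints fell 1.76-fold (log2 -0.82 ± 0.19, edgeR adjusted p = 0.0103), or by a log2 value of -1.23 without the untreated library (adjusted p = 0.0268), whereas the input value of -0.26 ± 0.08 narrowly missed the threshold (adjusted p = 0.0505, or 0.0312 without the 30 min libraries). At 16 h footprints were above untreated cells by a log2 change of 0.58 ± 0.20 (edgeR adjusted p = 0.0216) and input by 1.05 ± 0.09, or 2.07-fold (adjusted p = 2.19e-07). The footprint call at 16 h was lost without the untreated library (log2 0.20, edgeR adjusted p = 0.653), with total-count scaling (adjusted p = 0.0523) and with DESeq2 (adjusted p = 0.0969).

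Tyk2, the kinase bound to the type I interferon receptor chain IFNAR1, was higher at 16 h, with no early change called. Its footprint counts lay between 151 and 183 from 0 to 90 min and reached 423 at 16 h, and its input counts lay between 496 and 564 and reached 908. The early change was not called in footprints (edgeR adjusted p = 0.406) or in input (adjusted p = 0.0613). At 16 h, footprints were 2.79-fold above untreated cells (log2 1.48 ± 0.15, edgeR adjusted p = 8.04e-07) and input 2.02-fold (1.01 ± 0.10, adjusted p = 9.82e-07). Its density was 0.520 (0.462 to 0.584) at 16 h, against 0.343 (0.285 to 0.410) in untreated cells, with intervals that leave out variation between libraries. The density change of 0.55 ± 0.18 on the log2 scale had an unadjusted p of 0.0072 and an edgeR adjusted p of 0.255. The exons of Tyk2 overlap the antisense gene 1700084C06Rik by 554 bases, and without strand, reads from there cannot be told apart.

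Counted together over 0 to 90 min, 2 of the 9 genes rose in footprints (Jak1 and Socs3) and 3 fell (Stat2, Stat5a and Jak2), and 21.8% of all tested genes were called in footprints (12.7% higher and 9.13% lower). In input 3 rose (Stat3, Jak1 and Socs3) and 2 fell (Stat2 and Stat5a), with 27.1% of all genes called (15.2% higher and 11.9% lower). The median log2 change of the 9 genes was 0.14 in footprints and 0.10 in input, beside -0.07 and -0.04 over all tested genes. At 16 h, 7 rose and none fell in footprints, and 6 rose and none fell in input, beside 50.6% of all genes called in footprints (26% higher and 24.6% lower) and 55.3% in input (28.3% higher and 27% lower). The median log2 change at 16 h was 0.59 in footprints and 1.01 in input, against 0.00 and 0.01 over all tested genes. Against 90 min, 6 of the 9 rose in footprints and 5 in input at 16 h, beside 50.8% of all genes called in footprints (25.9% higher and 24.9% lower) and 52.4% in input (26.7% higher and 25.7% lower). Since the line was lysed in bulk, more cells with a given RNA and more of that RNA per cell cannot be told apart.

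**Figure D3:**
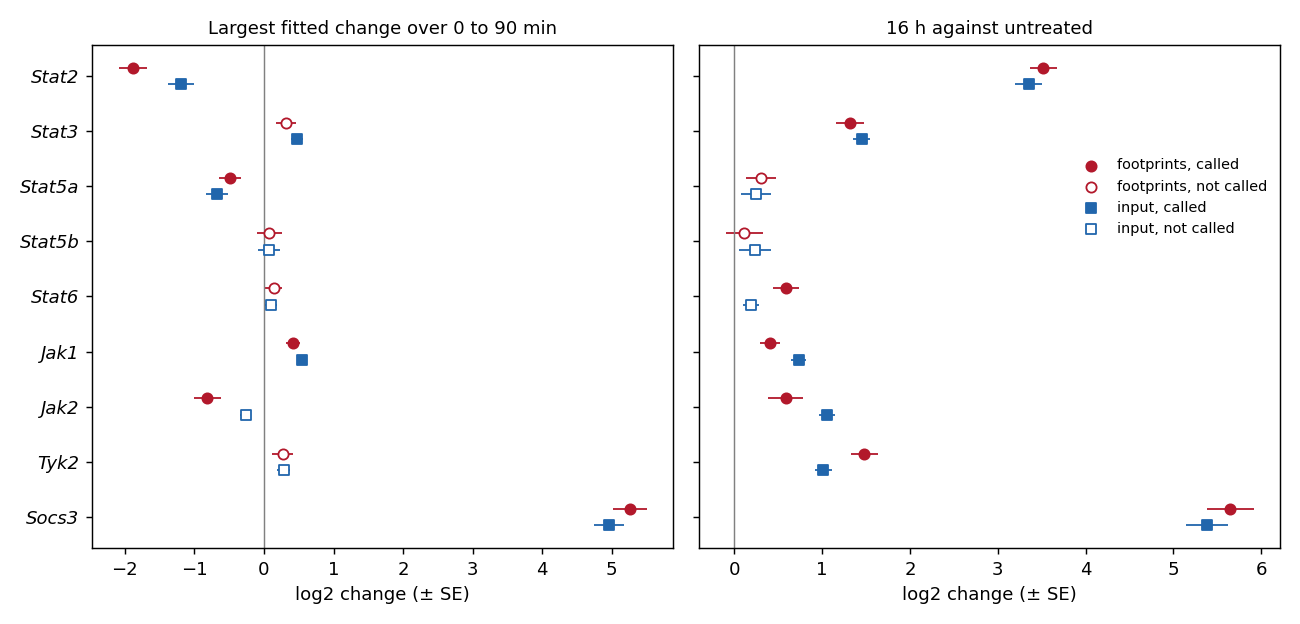
Fitted log2 changes (± SE) of the 9 genes in footprints (red circles) and input (blue squares), as the largest change over 0 to 90 min (left) and at 16 h against untreated cells (right). Filled symbols passed an edgeR adjusted p of 0.05, which in the left panel tests the whole curve. Stat2 lies at -1.89 in early footprints and at 3.52 in footprints at 16 h, and Socs3 lies above 4.9 in both panels.

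No density change of a member was called by edgeR over 0 to 90 min or at 16 h, where 1.28% of all genes (1.14% higher and 0.136% lower) and 0.504% (0.378% higher and 0.126% lower) were called. At an unadjusted p under 0.05, 2 members passed over 0 to 90 min (Stat2 and Jak2, both lower) and 2 at 16 h (Stat6 and Tyk2, both higher), beside 9.18% and 10.4% of all tested genes, and DESeq2 called 0 members in either comparison. The early change of Jak2 density was -0.57 ± 0.19 on the log2 scale (edgeR adjusted p = 0.370).

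The mean density over the 8 times spread widely among the members. Against the typical gene it was higher for Stat5a (1.55-fold), Stat2 (1.38-fold), Jak1 (1.28-fold), Stat3 (1.25-fold) and Socs3 (1.17-fold). It was lower for Stat6 (1.30-fold), Stat5b (1.31-fold), Tyk2 (2.51-fold) and Jak2 (4.86-fold). All 9 differences were called by edgeR, at adjusted p between 1.11e-17 for Jak2 and 0.000443 for Socs3, but so were those of 85% of all genes (43.6% higher and 41.5% lower). Jak2, with a mean log2 density of -2.28 ± 0.07, lay at percentile 1.90 of all tested genes, and Tyk2, with -1.33 ± 0.07, at percentile 9.72. Jak2 density ran from 0.145 at 75 min to 0.264 at 15 min, below that of every other member in every library pair. The Socs3 level lost its sign with total-count scaling (log2 -0.00), and Stat3 then had 0.11 (edgeR adjusted p = 0.114). Input fragments cover whole transcripts and footprints mostly coding sequence, and the sources used here do not name the features that were counted, and the part of UTR length in this ratio was not tested. The Jak2 3′ UTR of 1235 bases makes up 24.6% of the transcript, as against 57.9% for Socs3.

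**Figure D4:**
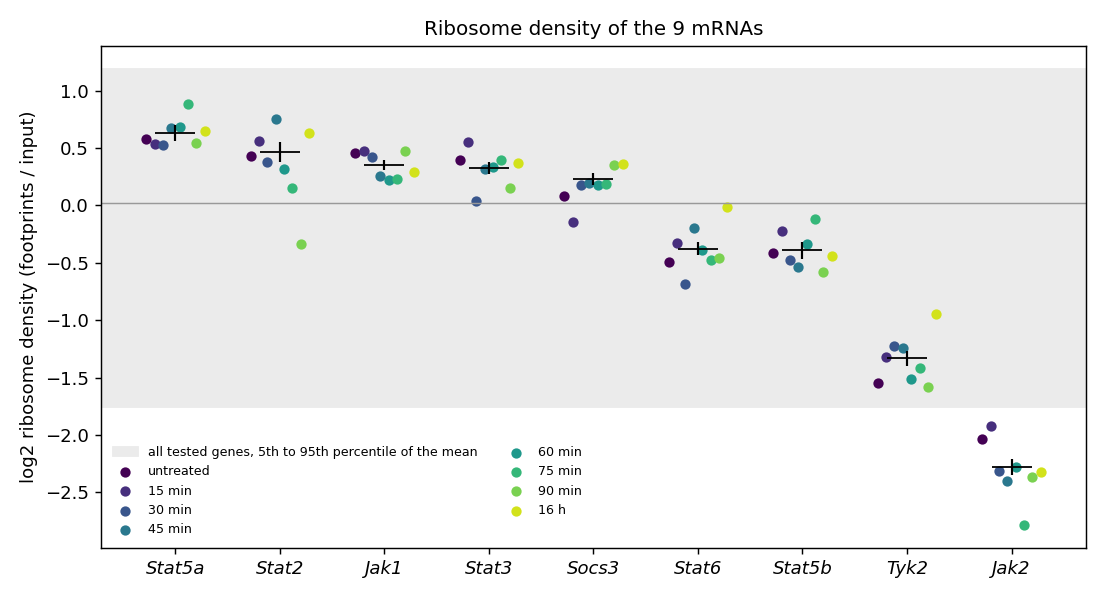
Log2 ribosome density (footprints over input, libraries scaled over all 16) of the 9 genes, with 1 point per time from untreated (dark) to 16 h (light), the fitted mean ± SE as a black cross, and the range from the 5th to the 95th percentile of all tested genes in grey. Jak2 alone lies below the grey band, at a mean of -2.28, and Tyk2 lies in its lower part at -1.33.

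The start sites of the 3 kinases are shown because Jak1, Jak2 and Tyk2 shared a feature there and differed in density. Each run below has the ATG in capitals with the bases on either side (GENCODE vM21 on GRCm38; chromosomes 4, 19 and 9).
Jak1: gaataaATGcagtatctaaatataaaagag
Jak2: ctctagATGggaatggcctgccttacaatg
Tyk2: cattgaATGgtggggaccatgcctctgtgt
All 3 have T as the third base before the ATG, where 86.5% of 8895 tested genes have a purine. Jak2 and Tyk2 have G right after the ATG, as do 54.1% of genes, and Jak1 has C. Jak1 density was above that of the typical gene. Of the other members only Stat2 lacked a purine at that place, with C. The starts are those of the transcripts with the longest coding sequence. Further on, the runs of Jak2 and Tyk2 also hold ATG in frame with a purine at that place, and which start is used was not tested. Jak2 (chr19:29251828-29313080, plus strand) has 3 ATG triplets in its 5′ UTR, Tyk2 (chr9:21104070-21131232, minus strand) has 2 and Jak1 (chr4:101152367-101265282, minus strand) has 1. Stat5b had the most, 8, and 48.4% of 9135 tested genes had at least 1.

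As footprint CPM (counts scaled to a common library size) per kilobase of coding sequence, Socs3 had the highest median level over the 8 times, 87.2, with a range of 6.43 to 311. It was followed by Jak1 at 60.0 (54.7 to 79.3), Stat3 at 30.0 (23.0 to 62.9) and Stat6 at 29.0 (23.7 to 40.0). The other members lay between 5.97 for Jak2 and 9.90 for Stat5a. These ranges include changes over time. Within libraries Stat3 was above Stat6 in 5 of 8, while Jak1 was above both in all 8. Stat5a was above Stat5b in all 8 and above Tyk2 in 6, and the order of Tyk2, Stat5b, Stat2 and Jak2 differed between times. Socs3 led at 16 h with 311, against 6.43 and rank 8 of 9 in untreated cells. Stat2 was next at 16 h with 81.4, against 6.76 in untreated cells, and Jak1 had 75.9 at 16 h, against 54.7 and the lead in untreated cells.

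The rest of the pathway was followed through lists ordered by role, whose counts are to be read beside the shares of all genes given above: 21.8% of genes called in early footprints, 27.1% in early input, 50.6% in footprints at 16 h and 55.3% in input at 16 h. Of 6 tested ligands of JAK-coupled receptors, 4 rose and 1 fell in footprints over 0 to 90 min, and 5 rose at 16 h, with median log2 changes of 3.95 and 5.28. In input 5 rose and 1 fell over 0 to 90 min and 6 rose at 16 h, with medians of 3.99 and 4.50, or 2.92 and 4.45 when Il23a, at 0 counts in untreated input, was set at its floor of 3 counts. Of these 6, Il23a, Osm, Csf2 and Csf3 had under 10 footprint counts in untreated cells, and Il23a and Csf3 had under 10 input counts there, a split made after the counts were seen. They passed the filter through later libraries, so that their rise was partly set by the filter: they are 3 of the 4 that rose early and 4 of the 5 that rose at 16 h in footprints. Osm, an IL-6 relative, had 258 footprint counts at 45 min and 237 at 16 h, against 7 in untreated cells. Csf3, which encodes G-CSF, had 171 footprint counts at 90 min and 4393 at 16 h, against 0 in untreated cells. Il15 was the 1 ligand that fell early, with 1 footprint count at 90 min against 15 in untreated cells. Ifnb1, which encodes interferon beta, was below the filter, with 41 footprint and 29 input counts at 16 h, against at most 9 in any earlier library. Il6 was likewise below it, with 1519 footprint and 968 input counts at 16 h and at most 35 before.

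Among 16 tested receptor chains, 2 rose and 2 fell in footprints over 0 to 90 min, and 8 rose and 3 fell at 16 h, with medians of 0.04 and 0.53, beside 21.8% and 50.6% of all genes called, with medians of -0.07 and 0.00. Il10ra, the ligand-binding chain for IL-10, rose 2.81-fold in footprints over 0 to 90 min (edgeR adjusted p = 4.41e-05). Il6st, which encodes gp130, fell, with a log2 change of -0.90 ± 0.15 (edgeR adjusted p = 0.00104), and stayed lower at 16 h (-0.64 ± 0.17, adjusted p = 0.00484). Il4ra, the IL-4 receptor chain, was 6.50-fold higher in footprints at 16 h (edgeR adjusted p = 3.09e-06). In input 3 chains rose and 2 fell early, and 10 rose and 2 fell at 16 h.

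Irf9, the DNA-binding partner of STAT2, and Jak3, the kinase of receptors with the common gamma chain, rose at 16 h in both materials. Irf9 footprints were 4.83-fold above untreated cells (log2 2.27 ± 0.18, edgeR adjusted p = 2.29e-08), beside 11.5-fold for Stat2, and Jak3 footprints 2.18-fold (1.13 ± 0.28, adjusted p = 0.00292). Over 0 to 90 min neither was called in footprints, and Irf9 fell in input (log2 -0.75 ± 0.18, edgeR adjusted p = 0.0158).

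Of 18 tested inhibitors other than Socs3, 4 rose and 1 fell in footprints over 0 to 90 min, and 3 rose and 1 fell at 16 h, with medians of 0.14 and 0.10, so that the share called at 16 h was below the 50.6% of all genes and the early share was close to their 21.8%. Cish, the SOCS-family inhibitor induced by STAT5, rose 8.40-fold in footprints over 0 to 90 min (edgeR adjusted p = 1.66e-05); its counts were 386 at 90 min and 78 at 16 h, against 53 in untreated cells. Usp18, which damps the interferon receptor, was 63.8-fold higher in footprints at 16 h (edgeR adjusted p = 1.28e-13). It is also among the 4 counted as risen early, by its largest fitted log2 value of 0.48 ± 0.20 (edgeR adjusted p = 0.0275). Its footprint counts were 61 in untreated cells, 88 at 45 min and 36 at 90 min, so that rise did not last to 90 min. Socs1 was below the filter, with at most 10 footprint counts in any library. In input 6 inhibitors rose and 2 fell early, and 8 rose at 16 h.

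Target genes of the STAT proteins were counted in the same way. Of 14 STAT3 target genes, 10 rose in footprints over 0 to 90 min and 11 at 16 h (medians 1.96 and 2.64), and 12 rose in input at either time. Bcl3 and Myc in footprints and Myc in input had under 10 counts in untreated cells and passed the filter through later libraries; without them 8 of 12 rose in early footprints, 9 of 12 at 16 h, and 11 of 13 in input at either time. These lists hold genes that LPS also induces through other factors, and Pim1, with 2478 footprint counts at 90 min, against 129 in untreated cells, is counted among both STAT3 and STAT5 targets. Of 7 tested STAT5 targets, 3 rose in footprints early and 6 at 16 h (medians 1.53 and 2.08). Osm among them had under 10 untreated footprint counts and passed the filter through later libraries. Without it 2 of 6 rose early and 5 of 6 at 16 h. The 3 early ones were Osm, Pim1 and Cish, each of which is also counted in another list. Of 12 tested ISGF3 targets, 4 rose and 1 fell in footprints over 0 to 90 min (median 0.34). All 12 rose at 16 h (median 4.81), as they did in input (median 5.29). Irf7 in footprints and Isg15 in input had under 10 untreated counts, and without them 11 of 11 rose at 16 h in each material. Isg15, an interferon-induced modifier, had 81 footprint counts at 90 min and 8308 at 16 h, against 26 in untreated cells. Of 10 STAT6 targets only Mrc1 was tested, and it was not called at any time.

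The patterns most like those of the members were taken from 7215 genes with a mean of at least 100 counts, by Pearson correlation over the 16 libraries after the mean of each material was removed; both libraries of a time point share a lysate, and the 16 h pair weighs heavily. Slc25a24 (r = 0.993) and Dtx3l (0.986) were most like Stat2. Cdkn1a and Ccl3 (both 0.973) were most like Socs3, and Trpv2 (0.974) and Itpr2 (0.970) most like Tyk2. Cd82 (0.979) and Myo10 (0.977) followed Stat3, Esf1 (0.962) and Psmd12 (0.959) followed Jak1, and Dtwd1 (0.967) and Sept8 (0.957) followed Jak2. Likeness was weaker for Stat5a (Lnx2, 0.956, and Fnip2, 0.935) and Stat6 (Brwd1, 0.909, and Atp11a, 0.906), and weakest for Stat5b (Ip6k1, 0.805, and Scly, 0.749). Among the members themselves Stat2 and Jak2 were most alike (0.937), followed by Stat3 and Tyk2 (0.927), and Stat5a and Jak1 ran most in opposite directions (-0.31).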

How the data were processed

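The authors deposited whole-number read counts per gene for 16 libraries, and the same counts as a signal divided by a DESeq2 size factor, per the file headers. The submitters' processing notes name Bowtie 0.12.8, DESeq2 1.18.1 and mm10; the sources used here do not describe how reads were assigned to genes or strands. Tests used the counts; the normalised signal was only checked against them. The count filter asked for 10 counts or more in 4 or more of 8 libraries of each material. Libraries were scaled by TMM and fitted with edgeR 4.0.16 (quasi-likelihood, robust) in R 4.3.3, with linear and quadratic minutes over 0 to 90 min and a separate 16 h term, and p-values adjusted by Benjamini-Hochberg over all 9529 tested genes, threshold 0.05. The early change is the fitted value farthest from that at 0 min. Density was tested over all 16 libraries with time point as a block. Residual degrees of freedom were 4, or 7 for the mean density; the single 16 h library was taken to vary as much as the others. DESeq2 1.42.0, other scalings, filters and time terms, and each time point left out were alternatives. Each time point's footprints and input share a lysate, so the block pairs them. All members were named; for pathway lists, at most 3 called genes each way, besides genes below the filter, whose counts were chosen after they were seen. The members and lists were chosen with earlier results of these data known. Sequences are RefSeq promoters (GRCm38.p6) and GENCODE vM21 transcripts with the longest coding sequence.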

Additional observations from a re-analysis of the deposited data

How the results depend on the processing

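Of the 9 members, the number called over 0 to 90 min was 5 in each material. With adjacent time points as groups it was 1 in footprints and 2 in input, and the Socs3 calls were lost (edgeR adjusted p = 0.173 in footprints and 0.129 in input). In footprints it was 2 with the square root of time, where Stat2 was lost (adjusted p = 0.102), and 3 without the 90 min time point. Footprint calls at 16 h numbered 4 of 7 without the untreated libraries. Calls of Stat3, Stat5a, Jak1 and Jak2 were also lost with other time terms, at adjusted p between 0.0505 and 0.325, and that of Stat6 footprints at 16 h against 90 min with DESeq2 (adjusted p = 0.0656). Early input calls were gained for Jak2 with median-of-ratios (0.0458) or total-count scaling (0.00564) or a linear term (0.0347), for Tyk2 with a linear term (0.0349), and for Jak1 input at 16 h against 90 min with the square root of time (0.0364). The cause of these differences was not tested. Without the untreated libraries the value at 0 min was extended from later times, so those fits hold no measured untreated cells.

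Total-count scaling gave a median over all genes of -0.32 (log2), in place of -0.07, for early footprints and of -0.17, in place of -0.04, for early input, so that 723 genes were higher and 2818 lower in footprints, and 1007 and 1991 in input, against 1207 and 870, and 1448 and 1131. At 16 h it gave 2104 and 2798 in footprints and 2107 and 3376 in input, against 90 min 3052 and 1804 in footprints, and 3056 and 4800 for the mean density. Early calls over all genes were 2077 in footprints, but 821 (square root) and 955 (adjacent groups), and 2579 in input, but 1677 (DESeq2), 1694 (without 90 min), 1406 (square root) and 1330 (adjacent groups). Footprint calls at 16 h were 4818, but 3093 without the untreated libraries. Early density calls were 122, but 5 without 0 min, 328 without 30 min and 56 with a linear term. Density calls at 16 h were 48, but 25 with DESeq2, 10, 26, 143, 30 and 30 without 0, 15, 30, 60 and 75 min, 29 with adjacent groups and 27 without the block.

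Signs turned only for values that were not called, apart from the Socs3 density level (-0.0041 with total counts). For Stat5b early footprints they were -0.28 (total counts), -0.14 (without 75 min and cubic), -0.019 (linear) and -0.0059 (square root), and for early input -0.15 (total counts), -0.13 (without 15 min), -0.018 (linear), -0.0059 (square root) and -0.069 (adjacent groups). For Stat5b early density they were -0.021 (median-of-ratios scaling), -0.024 (DESeq2), -0.016 (linear), -0.13 (total counts), -0.034 (no filter), -0.030 (without 60 min), -0.064 (without 0 min), -0.19 (without 75 min), -0.0047 (square root) and -0.15 (cubic). Stat5b footprints at 16 h against 90 min turned to -0.19 without 90 min, and its 16 h density to 0.021 without 15 min, where Stat3 had 0.049. Stat6 turned with total counts in early footprints (-0.13), input (-0.027) and density (-0.10), in density without 45 min (-0.035) and in input at 16 h against 90 min without 90 min (-0.037). Tyk2 early density was -0.24 (total counts), -0.23 (without 0 min), -0.13 (linear) and -0.022 (square root). Jak1 footprints at 16 h against 90 min were 0.15 (total counts), 0.012 (without 45 min), 0.16 (without 90 min and square root), 0.090 (linear) and 0.070 (adjacent groups), and Socs3 there was -0.020 (linear).

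Without the time-point block, which pairs the footprints and input of a lysate, no member's density change was called (0 over 0 to 90 min and 0 at 16 h), and 6 of 9 mean density levels were: those of Stat2, Stat3 and Socs3 were lost (adjusted p = 0.584, 0.184 and 0.773).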

Other observations

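Irf7, an interferon-induced transcription factor among the ISGF3 targets, was the 1 tested gene of these lists whose ribosome density was called different at 16 h. It had 169 footprint counts at 16 h, against 7 in untreated cells, and 5300 input counts, against 28. Its log2 density at 16 h was lower by a change of -3.67 ± 0.54 (edgeR adjusted p = 0.00260), where 0.126% of all tested genes were called lower. Over 0 to 90 min its footprints lay between 7 and 24 counts and its input between 24 and 35.

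Sh2b3, which encodes an adaptor that restrains JAK2, had the lowest mean density named in the inhibitor list, at a log2 value of -3.32 ± 0.11 (edgeR adjusted p = 1.61e-17), beside -2.28 for Jak2. Its counts were 13 to 28 in footprints and 156 to 277 in input.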
